A study of Mus musculus with 6 samples.

Results

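Cultures deficient in both Sting and Trex1 (STKO) were compared with cultures deficient in Trex1 alone (TKO), neither of them given DNA. The comparison uses 2 of the 6 Illumina expression arrays of the series, the array titled STKO mock and the array titled TKO mock, chosen by their titles. Of the 45281 probes on each array, 16387 were detected on at least 1 of these 2 arrays, meaning that more than 0.99 of the negative controls lay below the probe. These probes read 9320 genes when 1 probe is kept for each gene, out of 19057 genes with a probe. The array of mock-treated wild-type (WT) cells was read to see how far levels lay from wild type, and the STKO and TKO arrays of cells given ISD, an immunostimulatory double-stranded DNA, at 4 µg/ml for 6 hours, were read for the same genotype contrast.

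All 6 arrays are labelled as mouse embryonic fibroblasts from e13.5 embryos, strain C57BL6/129Sv, grown in DMEM with serum, so the 3 genotypes share the strain label and the culture. STKO cells are described as lacking STING and Trex1, TKO cells as lacking Trex1, and WT cells as lacking neither. How the alleles were made, and whether 1 or several embryos gave each culture, were not given in the sources used here. A separate genotype field contradicts 5 of the 6 titles, since it gives Sting +/+ for both arrays titled STKO, and Sting -/- for those titled WT and for TKO mock. The treatment field names ISD for every array, mock ones included. Both genotype and treatment were therefore taken from the titles. Each group holds 1 array. No difference below therefore has a replicate check, no p-value or standard error can be given, and each describes these arrays.

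TREX1 is an exonuclease and removes DNA from the cytosol. DNA left there is sensed by cGAS, which makes the messenger cGAMP. STING binds cGAMP and, through the kinase TBK1 and the factor IRF3, turns on Ifnb1, while NF-kB turns on cytokine genes. Secreted interferon then acts back on the same and neighbouring cells through IFNAR, and the transcription factor ISGF3 binds interferon-stimulated response elements (ISREs) in front of antiviral genes. Loss of TREX1 is known to give a standing interferon response in mice and in people with Aicardi-Goutières syndrome.

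A level below is the normalized log2 of background-corrected intensity plus 16, and a difference is the STKO mock level minus the TKO mock level. The lowest level of a detected probe was 5.65 on the STKO mock array and 5.66 on the TKO mock array, and the highest level on every array was 15.44. Where a probe was not detected on 1 array, the fold is a lower bound. Levels of different genes come from different probes and are not set against each other.

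The cell-type label was checked first, since it bears on every result. All 10 macrophage and blood markers with a probe were detected on the STKO mock and the TKO mock array, and 9 of 10 on the WT mock array. Adgre1, which encodes the macrophage antigen F4/80, read 13.43 on the STKO array, 13.76 on the TKO array and 13.98 on the WT array. Csf1r, the receptor for macrophage colony-stimulating factor, read 13.17, 13.24 and 13.49 on the STKO, TKO and WT arrays, and Lyz2, macrophage lysozyme, read 15.18, 15.15 and 15.13. The Lyz2 level lies near the highest level of 15.44, which limits differences there, and a dimmer Lyz2 probe read 8.78, 7.75 and 8.54 in the same order. These bright markers on all 3 arrays go against a culture of fibroblasts alone. Of the 10 fibroblast markers, 9 were detected on each of the 3 mock arrays and Postn was not. Col1a1, a chain of type I collagen, read 10.52 on the STKO array, 10.27 on the TKO array and 12.07 on the WT array. None of the 7 endothelial markers was detected on the 3 mock arrays, and at most 1 epithelial, 1 muscle and 1 neural marker was. Of 4 sex-linked genes, 3 were detected on the STKO, 2 on the TKO and 3 on the WT mock array, none 2-fold apart between STKO and TKO. The arrays are therefore called STKO, TKO and WT cultures here.

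The sum of unlogged levels over the macrophage and blood list was 146841 on the STKO mock array, 153384 on the TKO mock array and 120877 on the WT mock array, and that of the fibroblast list was 21429, 18769 and 21439. Without Fcer1g, the macrophage and blood sum was 115720 on the STKO, 120112 on the TKO and 120854 on the WT mock array. Between STKO and TKO, none of the 9 tested fibroblast markers and 1 of the 10 macrophage markers differed 2-fold. That 1 was Cd14, the lipopolysaccharide co-receptor, at 13.41 on the STKO array and 12.12 on the TKO array. A second, dimmer probe of Cd52, a surface glycoprotein of leukocytes, read 9.07 on the STKO array and 11.29 on the TKO array, while the probe used differed by -0.54. Fcer1g, the common signalling chain of Fc receptors, read 14.93 on the STKO array and 15.02 on the TKO array and was not detected on either WT array. What part the mixture of cells has in the differences was not tested. In bulk RNA, fewer cells of a type and less RNA per cell cannot be told apart.

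**Figure D1:**
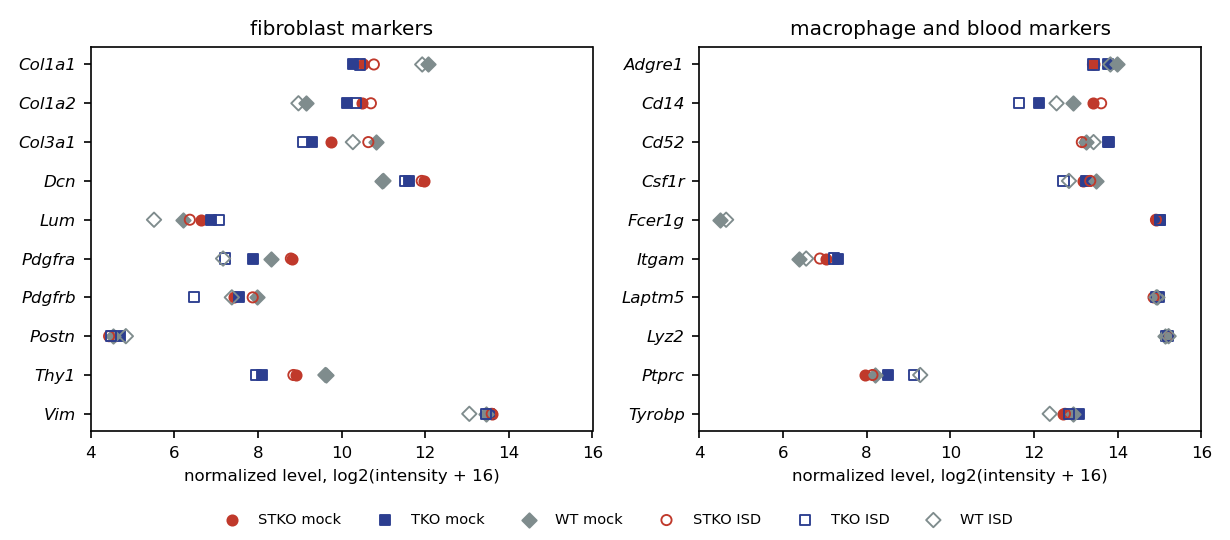
Normalized levels, as log2(intensity + 16) on the x axis, of 10 fibroblast markers (left) and 10 macrophage and blood markers (right) on the 6 arrays, 1 point an array. Macrophage markers such as Lyz2 and Laptm5 lie near the top of the scale on every array, and Fcer1g is bright on all 4 knockout arrays but was detected on neither WT array.

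The probes of the targeted genes were read next. Sting1 was detected on all 6 arrays and read 5.81 on the STKO mock array, 7.13 on the TKO mock array and 7.34 on the WT mock array. With ISD it read 5.64 in STKO cells, 8.06 in TKO cells and 8.92 in WT cells. The 2 arrays titled STKO were thus the lowest of the 6, as the titles and not the genotype field would have it, although the mock difference of -1.31 came to only -0.80 without background correction. Trex1 was read by 2 detected probes. The brighter read 7.56 on the STKO array, 9.36 on the TKO array and 10.00 on the WT array, and the other read 6.53, 8.08 and 9.29. A further Trex1 probe was not detected on any array. Whether any of these probes lies within a deleted part is not given. They therefore neither check the deletions nor decide between the titles and the genotype field.

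Genes 2-fold apart between the genotypes were more often lower than higher in STKO cultures. Of the 9320 genes, 382 were 2-fold or more lower on the STKO mock array (4.1%) and 294 were 2-fold or more higher (3.15%). Counted as probes, 671 of 16387 were lower (4.09%) and 473 higher (2.89%). The balance widened with the size of the difference. At 4-fold or more, 116 genes were lower and 26 higher, and at 16-fold or more, 30 were lower and 1 was higher. At 1.5-fold, by contrast, 867 genes were lower and 1003 higher. The median difference over all tested genes was 0.05. Of the called genes, 283 of the lower and 211 of the higher were detected on both arrays. With undetected levels set at their bound, 342 genes stayed 2-fold lower and 242 stayed 2-fold higher. At the edge of the detection filter, 427 probes had a higher fraction between 0.99 and 0.995, of which 8 were 2-fold lower and 4 higher, and 508 probes just outside, between 0.985 and 0.99, held 4 lower and 7 higher.

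The 15 largest decreases among genes detected on both arrays were 14.99-fold to 229.9-fold, and 10 of these genes belong to the lists of interferon-related genes. The largest was in Cxcl10, a chemokine that draws T cells through CXCR3, which read 6.70 on the STKO mock array, 14.54 on the TKO mock array and 8.74 on the WT mock array (difference -7.84). A second Cxcl10 probe differed by -6.77. Rsad2, the antiviral enzyme viperin, read 8.02 in STKO, 15.14 in TKO and 9.85 in WT cultures (difference -7.12), and its genomic neighbour Cmpk2, a mitochondrial nucleotide kinase, read 6.74, 13.44 and 8.76 (difference -6.70). In each of these genes TKO stood far above both other cultures. The TKO level of Rsad2 lies close to the highest level of 15.44, which limits the difference that could be read. Ifit3, an antiviral protein of the IFIT family, read 8.37 in STKO, 14.98 in TKO and 11.16 in WT cultures (difference -6.60). Its relative Ifit2 read 7.51 in STKO, 13.39 in TKO and 9.26 in WT cultures (difference -5.88). Cd69, a membrane protein of early lymphocyte activation, read 5.79 in STKO, 12.51 in TKO and 7.54 in WT cultures on the probe used (difference -6.72). A second, dim Cd69 probe, not detected in STKO cultures, differed by only -0.25, so the probes of Cd69 disagree.

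Regulators of the interferon response stood in the same group. Usp18, a protease that removes ISG15 from proteins and restrains the interferon receptor, read 8.32 in STKO, 13.77 in TKO and 10.06 in WT cultures. Irf7, the factor that amplifies type I interferon production, read 5.89 in STKO and 7.83 in WT cultures and was 34.4-fold lower in STKO than in TKO cultures. Isg15, the ubiquitin-like modifier, read 6.75 in STKO, 11.62 in TKO and 8.43 in WT cultures. For all 3, STKO was the lowest array and TKO the highest. The others were the immunity GTPases Ifi47, Gbp3 and Igtp, the PYHIN gene Ifi213, the transcription factor gene Batf2 and Calhm6, of a family of channel proteins, with differences of -4.20, -4.18, -4.04, -4.05, -3.91 and -3.98. Of the 15 genes, TKO was 2-fold or more above WT in 15. STKO was 2-fold or more below WT in 12 and within 2-fold of WT in Ifi213, Igtp and Batf2, the last not detected in WT mock cultures.

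**Figure D2:**
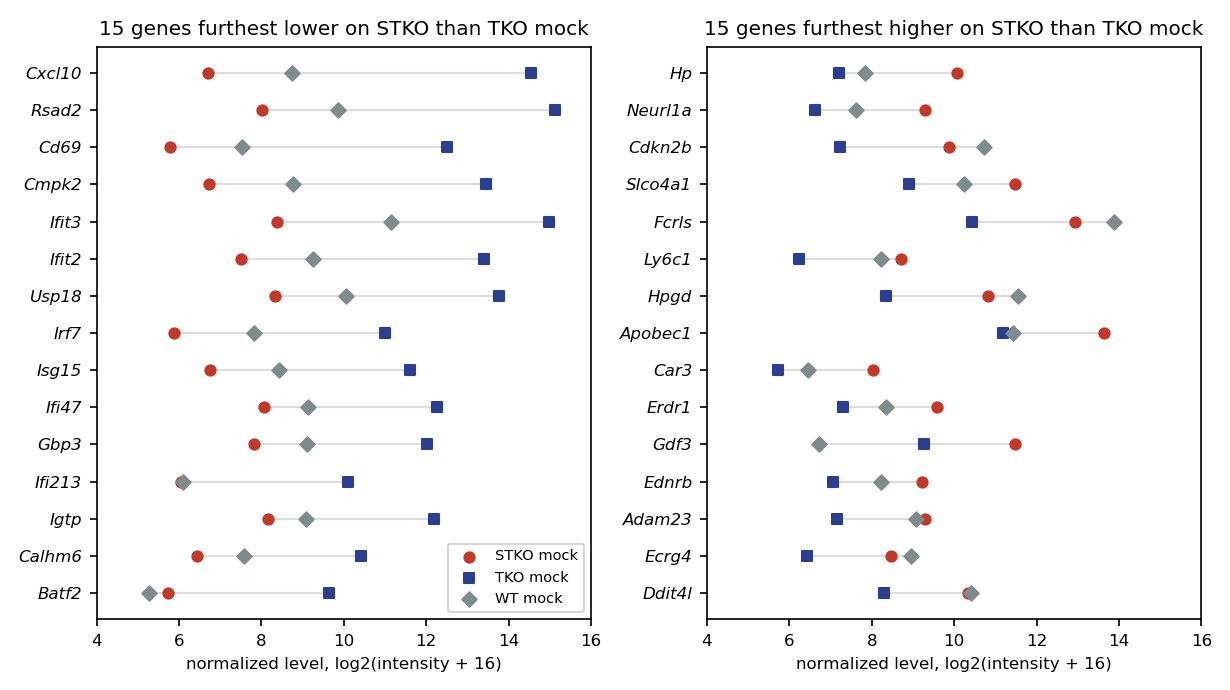
Normalized levels, as log2(intensity + 16) on the x axis, of the 15 largest decreases (left) and the 15 largest increases (right) on the STKO mock, TKO mock and WT mock arrays, 1 array each. On the left TKO is the highest point in every row, Cxcl10 reading 6.70 in STKO and 14.54 in TKO cultures, and on the right the WT point lies beyond STKO, between both or, for Gdf3, below both (Batf2 was not detected in WT).

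The ISRE core is where the interferon-activated factor binds. The promoters of 5 of these genes are shown, picked in order of the size of the decrease from those that hold the core. Its presence in all 5 was therefore set by the choice. Of the 15 largest decreases, 12 had a promoter window, and 8 of these 12 genes held the core. Cmpk2, Ifit2, Irf7 and Ifi47 had a window without it. Each window holds 250 bases before and 50 bases from the transcription start, from RefSeq on GRCm38.p6, 5′ to 3′ on the strand of the gene. Capitals mark the ISRE core, which was searched as GAAA, any 2 bases and GAAA on either strand, overlapping matches included. In Cxcl10 they also mark a kappaB-like match, searched as GGGA, any 3 bases and TCC.
The windows are chr5:92348840-92349139 (minus strand) for Cxcl10, chr12:26456403-26456702 (minus) for Rsad2, chr19:34583279-34583578 (plus) for Ifit3, chr4:156200769-156201068 (minus) for Isg15 and chr3:142559794-142560093 (plus) for Gbp3.
Cxcl10: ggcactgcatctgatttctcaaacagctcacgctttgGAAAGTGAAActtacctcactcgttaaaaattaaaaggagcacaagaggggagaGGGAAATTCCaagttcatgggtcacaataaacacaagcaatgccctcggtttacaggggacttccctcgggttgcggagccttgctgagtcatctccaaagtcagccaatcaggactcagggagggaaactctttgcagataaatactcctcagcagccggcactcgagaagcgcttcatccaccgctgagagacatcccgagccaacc
Rsad2: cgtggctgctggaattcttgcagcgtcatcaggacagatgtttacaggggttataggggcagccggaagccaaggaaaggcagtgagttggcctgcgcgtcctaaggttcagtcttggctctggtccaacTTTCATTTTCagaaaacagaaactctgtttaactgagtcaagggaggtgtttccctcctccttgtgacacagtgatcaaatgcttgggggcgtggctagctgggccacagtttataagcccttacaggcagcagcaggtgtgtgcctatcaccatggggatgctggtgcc
Ifit3: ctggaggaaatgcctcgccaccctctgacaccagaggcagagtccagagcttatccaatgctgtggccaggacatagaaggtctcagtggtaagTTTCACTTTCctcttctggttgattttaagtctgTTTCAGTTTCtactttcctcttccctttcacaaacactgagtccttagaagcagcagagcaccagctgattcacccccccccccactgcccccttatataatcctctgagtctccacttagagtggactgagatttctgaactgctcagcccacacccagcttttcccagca
Isg15: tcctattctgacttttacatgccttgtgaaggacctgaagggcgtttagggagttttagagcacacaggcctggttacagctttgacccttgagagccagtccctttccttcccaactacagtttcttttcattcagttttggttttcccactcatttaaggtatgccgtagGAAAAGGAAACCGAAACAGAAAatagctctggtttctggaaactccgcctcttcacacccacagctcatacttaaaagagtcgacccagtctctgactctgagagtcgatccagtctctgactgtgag
Gbp3: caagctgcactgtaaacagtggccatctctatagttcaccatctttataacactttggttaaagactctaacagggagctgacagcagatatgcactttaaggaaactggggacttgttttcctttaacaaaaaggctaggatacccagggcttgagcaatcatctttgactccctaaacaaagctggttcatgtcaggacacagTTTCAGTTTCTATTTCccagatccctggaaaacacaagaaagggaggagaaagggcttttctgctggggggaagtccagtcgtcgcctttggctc
In Cxcl10 the core begins 213 bases before the start and the kappaB-like match 159 bases before it. Rsad2 has 1 core, 120 bases before the start on the other strand. Ifit3 has 2 cores, Isg15 has 3 that overlap and begin 78, 72 and 66 bases before the start, and Gbp3 has 2 that overlap. Over all 32851 promoter windows of the table, 3.44% held the core and 4.59% the kappaB-like letters. Counted by gene, 4.0% of the tested genes with a window held the core. Of the 15 largest increases, 11 had a window and 0 of these held it. The matches describe the sequence, not binding. Only 79.1% of the lower and 74.5% of the higher genes had a promoter in the table, against 81.6% of all tested genes, so the check over all called genes is void. The count of 8 in 12 has a like gap and is a description only.

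Across the 5 lists of interferon-related genes, 72 of the 92 tested genes were 2-fold or more lower in STKO than in TKO cultures and 0 were higher, against 4.1% lower and 3.15% higher among all genes tested. Their median difference was -2.13, against 0.05 over all genes, and -1.97 with undetected levels at their bound. Among the genes detected on both arrays, 50 of 70 were lower. These lists and those below were chosen with earlier results of these data known, so their shares are descriptions and not an independent check.

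The cytokine that starts the response was itself measured. Ifnb1, interferon beta, was not detected on the STKO mock array, read 11.14 on the TKO mock array and was not detected on the WT mock array, at least 45.1-fold lower in STKO than in TKO cultures. With ISD it read 7.12 in STKO, 14.61 in TKO and 14.63 in WT cells. Ifna4, an interferon alpha gene, was detected on none of the 3 mock arrays. Of the 14 tested genes for interferons and for sensing DNA or RNA, 10 were lower, with a median difference of -1.38. They include the RNA sensors Ifih1 (MDA5), not detected in STKO cultures and at least 7.79-fold lower, Dhx58 (LGP2, difference -2.98) and Ddx58 (RIG-I, -2.64), and Tlr3, not detected in STKO cultures and at least 3.13-fold lower. Cgas, the DNA sensor upstream of STING, read 10.43 in STKO, 11.65 in TKO and 10.16 in WT cultures. It was thus 2.35-fold lower in STKO than in TKO cultures and within 2-fold of WT. The list also holds Irf7, and Zbp1, Trim56 and Trim25 were lower by 1.08, 1.04 and 1.53 on the log2 scale. The 4 tested genes under 2-fold were Tbk1 (difference -0.31), Ikbke (-0.61), Mavs (-0.28) and Irf3 (0.38), the kinases, the RNA-sensing adaptor and the factor that carry the signal.

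All 5 tested genes of the PYHIN list, from a family of which many members encode nucleic acid-binding proteins of the interferon response, were lower, with a median difference of -3.60 (-3.37 at the bound). The list leaves out Ifi213, given above, and other members of the family. Ifi205 was not detected in STKO cultures, read 11.15 in TKO and was not detected in WT cultures, at least 45.4-fold lower in STKO than in TKO. Ifi211 and Ifi204 were likewise detected in TKO cultures only, at least 10.8-fold and 10.0-fold lower in STKO. Mndal read 6.18 in STKO, 9.54 in TKO and 7.81 in WT cultures. Aim2, the sensor of the DNA inflammasome, read 7.86 in STKO, 9.09 in TKO and 7.80 in WT cultures, so STKO and WT lay close together. Ifi202b was detected on neither knockout mock array and read 10.50 on the WT mock array, and Ifi209 was detected on no array. Genes of this family are close copies, and probes may not tell them apart.

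Of 16 tested genes of interferon receptor signalling, 5 were lower and 0 higher, with a median difference of -0.45. Beside Usp18, these were Stat2, a subunit of ISGF3 (6.93 in STKO, 10.17 in TKO and 7.90 in WT cultures), Irf1 (11.20, 13.95 and 11.65 in the same order), Irf9, the DNA-binding subunit of ISGF3 (9.49, 10.85 and 9.92), and Socs1, a feedback inhibitor of JAK kinases. Socs1 was not detected in STKO or WT cultures and at least 1.90-fold lower in STKO than in TKO, so its bound falls short of 2-fold. The tested receptors and kinases were not 2-fold apart. Ifnar2 differed by 0.33, Ifngr1 by 0.10, Jak1 by -0.44, Tyk2 by -0.29 and Jak2 by -0.82, and Irf8, a factor of myeloid cells, by 0.04. The probe of Ifnar1 was not detected on any array.

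Antiviral interferon-stimulated genes made up the largest list. Of the 46 tested, 41 were lower and 0 higher, with a median difference of -2.25 (-2.08 at the bound), and among those detected on both arrays 30 of 35 were lower. Oasl1, an OAS-like protein that restrains IRF7, was not detected on the STKO mock array and read 12.92 on the TKO and 6.81 on the WT mock array, at least 155.0-fold lower in STKO than in TKO. Mx2, a dynamin-like antiviral GTPase, was not detected in STKO cultures and read 11.64 in TKO and 6.63 in WT cultures, at least 63.9-fold lower. Gm4951, an interferon-inducible gene with GTPase homology, was at least 49.5-fold lower. All 3 were thus below detection in STKO cultures while WT cultures had a measured level. The oligoadenylate synthetase genes Oas1a, Oas1b, Oas1g, Oas2 and Oas3 were each 2-fold or more lower, and their sequences are similar enough that probes may be shared. Adar, the RNA-editing enzyme, and Eif2ak2, the kinase PKR, were lower by 1.30 and 2.06 on the log2 scale.

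The 5 tested antiviral genes under 2-fold were Ifitm1 (difference -0.41), Ifitm2 (0.32), Ifitm3 (-0.29), Ifi27 (0.24) and Apobec3 (-0.60). A dimmer Ifitm1 probe ran the other way, at 8.38 in STKO, 6.89 in TKO and 8.66 in WT cultures (difference 1.49). The IFITM genes encode membrane proteins that block virus entry. Ifitm3 read 14.41 in STKO, 14.70 in TKO and 14.44 in WT cultures, all high on the scale. The probes used for Ifit1, Xaf1, Ifi44l, Nmi, Ms4a4d, Slfn8 and Parp9 were not detected on either array and give no difference. Trim30a read 8.47 in STKO and 10.80 in TKO cultures and was not detected in WT mock cultures, the 1 gene of the list with STKO 2-fold above WT.

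The interferon-inducible GTPases, which attack the vacuoles of intracellular microbes, were lower in 11 of 11 tested genes, with a median difference of -3.77 (-3.66 at the bound). Gbp5, a guanylate-binding protein, was not detected in STKO cultures, read 10.09 in TKO and was not detected in WT cultures, at least 21.7-fold lower in STKO than in TKO. Gbp7 was not detected in STKO cultures and at least 12.6-fold lower. Irgm2 read 8.75 in STKO, 12.52 in TKO and 9.72 in WT cultures. Irgm1, another immunity-related GTPase, differed least, at 13.14 in STKO and 14.31 in TKO cultures, although its other probes reached -3.44. Gbp10 was called but is only at least 1.51-fold lower by its bound. The probes used for Iigp1, Gbp2b, Gbp4, Gbp6, Gbp8 and Gbp9 were not detected on either array.

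**Figure D3:**
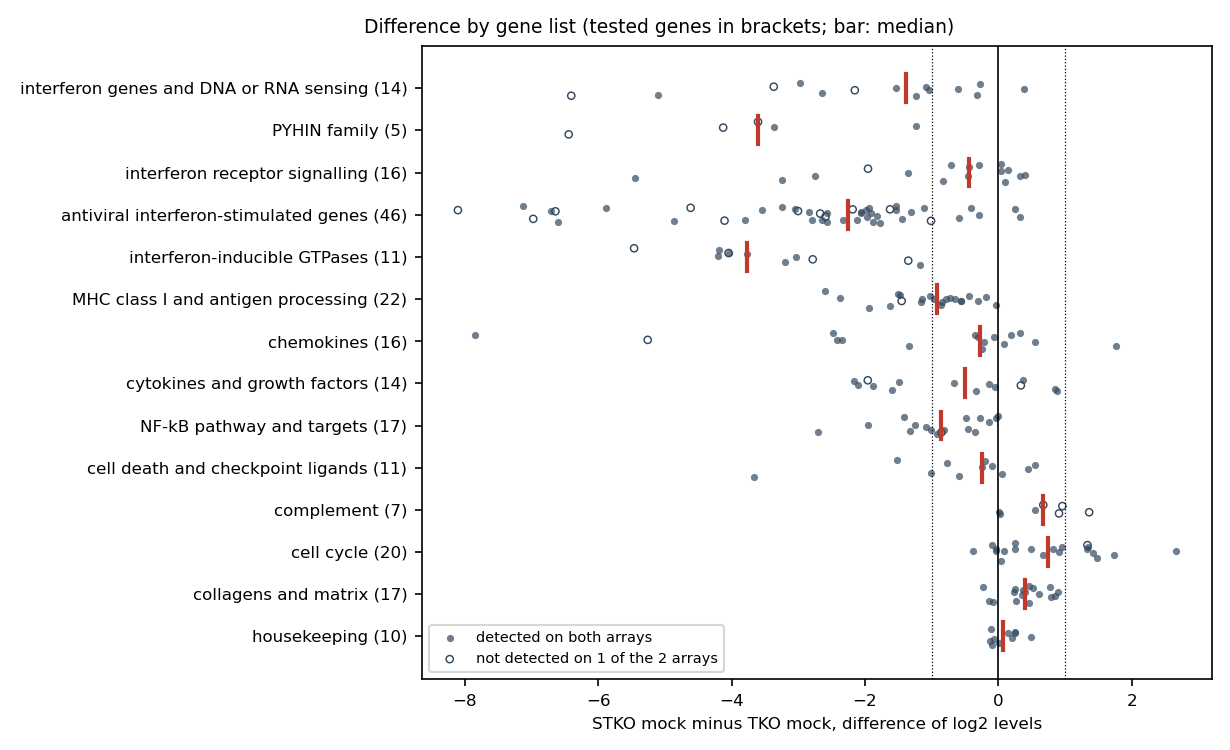
Each point is 1 tested gene, placed by the STKO mock minus TKO mock difference of log2 levels on the x axis, for 14 gene lists on the y axis with the number of tested genes in brackets. Red bars are medians, dotted lines mark 2-fold, and open points are genes not detected on 1 of the 2 arrays, whose place overstates what was measured. All points of the PYHIN and GTPase lists lie left of the 2-fold line, while collagen and housekeeping genes stay within it.

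Genes of MHC class I presentation, which load peptides for CD8 T cells, differed less, all in 1 direction. All 22 tested genes lay below 0 and 10 were 2-fold or more lower, with a median difference of -0.91. Tap1, the peptide transporter subunit, read 6.82 in STKO, 9.41 in TKO and 7.35 in WT cultures. Nlrc5, the transactivator of class I genes, read 7.16 in STKO, 9.09 in TKO and 6.97 in WT cultures. In both, STKO and WT lay within 2-fold of each other, as they did for all 22 genes. TKO lay within 2-fold of WT for 13 of the 22. H2-T10, H2-Q7, H2-T23 and Psmb9 were lower by 2.38, 1.63, 1.51 and 1.47 on the log2 scale. B2m, the invariant light chain, read 14.68 in STKO, 14.87 in TKO and 14.79 in WT cultures. The class I heavy chain genes are close copies of each other, so their probes may be shared.

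Of 16 tested chemokines, 6 were lower and 1 was higher, with a median difference of -0.27. Cxcl9, a relative of Cxcl10 that acts through the same receptor, was not detected in STKO cultures and read 10.54 in TKO and 6.32 in WT cultures, at least 29.8-fold lower in STKO than in TKO. Ccl5, which recruits T cells and monocytes, read 9.33 in STKO, 11.74 in TKO and 9.36 in WT cultures. Ccl3 and Ccl4, inflammatory chemokines of myeloid cells, read 11.01 and 12.72 in STKO, 13.35 and 15.20 in TKO, and 11.43 and 13.42 in WT cultures. The TKO level of Ccl4 is near the highest level, and a dimmer probe read 9.78 in STKO, 13.98 in TKO and 10.72 in WT cultures (difference -4.20). The same order of arrays held in these genes, with TKO on top. Cxcl2 was lower by 1.34 on the log2 scale, and its TKO level of 10.33 lay close to the WT level of 10.11. Cxcl12, a stromal chemokine, went the other way, at 12.08 in STKO, 10.31 in TKO and 11.18 in WT cultures. The monocyte chemokines Ccl2 and Ccl7 were not 2-fold apart, with differences of -0.24 and -0.31.

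Among 14 tested cytokines and growth factors, 6 were lower and 0 higher, with a median difference of -0.50. Il15, which sustains natural killer and memory T cells, read 9.18 in STKO, 11.34 in TKO and 9.24 in WT cultures. Its receptor chain Il15ra read 5.65 in STKO, 7.14 in TKO and 5.74 in WT cultures. Tnf read 9.41 in STKO, 11.52 in TKO and 9.55 in WT cultures. For each of these, STKO and WT differed by less than 0.2 and TKO stood above both. The Il15ra levels in STKO and WT lay close to the lowest detected levels of 5.65 and 5.51, which limits that reading. Tnfsf13b (BAFF) and Il6 were lower by 1.88 and 1.60 on the log2 scale, and Tnfsf10 (TRAIL) was not detected in STKO cultures and at least 2.53-fold lower. Il1b, not detected in TKO cultures, and Il33, both made in inflammation, were not 2-fold apart, with Il33 at 6.68 in STKO, 5.80 in TKO and 6.32 in WT cultures.

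The NF-kB pathway genes and targets all lay below 0. Of the 17 tested, 7 were 2-fold or more lower and 0 higher, with a median difference of -0.85. Cd40, the costimulatory receptor, read 8.33 in STKO, 11.03 in TKO and 8.73 in WT cultures. Tnfaip3, which encodes the inhibitor A20, read 8.79 in STKO, 10.74 in TKO and 9.26 in WT cultures. The inhibitor genes Nfkbia, Nfkbie and Nfkbiz were lower by 1.32, 1.25 and 1.42 on the log2 scale, whereas Rela, the main activating subunit, differed by -0.13. Birc3 was lower in STKO cultures (5.79) than in TKO (6.81) and WT cultures (6.93).

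Among 11 genes of cell death and checkpoint ligands, 3 were lower and 0 higher, with a median difference of -0.24. Cd274, which encodes the ligand PD-L1, read 8.87 in STKO, 12.52 in TKO and 8.49 in WT cultures, and was 12.6-fold lower in STKO than in TKO. Casp4, the caspase that senses lipopolysaccharide in the cytosol, read 8.23 in STKO, 9.75 in TKO and 6.93 in WT cultures, so STKO lay above the WT array, on which a second Casp4 probe was not detected. Mlkl, the executioner of necroptosis, was lower by 1.01 on the log2 scale. Gsdmd, Casp8 and Fas were not 2-fold apart. A list of nucleases also holds enzymes of other kinds, such as the RNA-editing enzyme Adar. Of its 7 tested genes, Adar and Samhd1 were 2-fold lower, Samhd1 reading 10.07 in STKO, 11.29 in TKO and 10.41 in WT cultures. The 3 ribonuclease H2 subunit genes, which share the Aicardi-Goutières association with Trex1, differed by 0.07 to 0.27.

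Fewer list genes were higher in STKO cultures. Pathway lists held 109 of the 382 lower genes and 15 of the 294 higher genes, and 331 of all 9320 tested genes (3.55%). The list with most was the cell cycle, where 7 of 20 tested genes were higher and 0 lower, with a median difference of 0.75. Cdc20, the activator of the anaphase-promoting complex, read 11.20 in STKO, 9.46 in TKO and 11.04 in WT cultures. Birc5 (survivin) read 11.56 in STKO, 10.07 in TKO and 11.49 in WT cultures. Bub1b, a spindle checkpoint kinase, read 10.91 in STKO, 9.49 in TKO and 10.80 in WT cultures. In these 3 genes STKO and WT lay together and TKO below. Aurka read 10.77 in STKO, 9.42 in TKO and 10.44 in WT cultures, and Ccna2 was not detected in TKO cultures and at least 1.54-fold higher. Plk1, a mitotic kinase, differed from these, at 9.91 in STKO, 8.58 in TKO and 6.61 in WT cultures. The remaining gene was Cdkn2b, an inhibitor of proliferation. Genes of DNA replication were not 2-fold apart, since Mcm2, Mcm3, Mcm5, Mcm6 and Pcna differed by -0.03, -0.09, 0.25, -0.03 and -0.38.

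The 15 largest increases among genes detected on both arrays were 4.09-fold to 7.18-fold, and 0 of them belong to the interferon lists. Hp, which encodes the haemoglobin-binding acute-phase protein haptoglobin, read 10.06 in STKO, 7.22 in TKO and 7.85 in WT cultures. Apobec1, the messenger RNA-editing cytidine deaminase, read 13.63 in STKO, 11.20 in TKO and 11.43 in WT cultures. Neurl1a, a ubiquitin ligase of the Neuralized family, read 9.29 in STKO, 6.62 in TKO and 7.61 in WT cultures. STKO stood 2-fold or more above WT in these 3 and TKO within 2-fold of it. Car3 and Erdr1 read 8.04 and 9.58 in STKO, 5.73 and 7.29 in TKO, and 6.46 and 8.35 in WT cultures. Slco4a1, an organic anion transporter, read 11.47 in STKO, 8.90 in TKO and 10.23 in WT cultures. Gdf3, a ligand of the TGF-beta family, read 11.47 in STKO, 9.26 in TKO and 6.71 in WT cultures, so both knockout cultures were far above WT.

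For the rest of the 15, WT lay within 2-fold of STKO. Cdkn2b, the cyclin-dependent kinase inhibitor p15, read 9.89 in STKO, 7.22 in TKO and 10.74 in WT cultures. Fcrls, an Fc receptor-like gene known from mouse macrophages and microglia, read 12.93 in STKO, 10.44 in TKO and 13.88 in WT cultures, and its 3 probes differed by 2.49 to 2.73. Hpgd, which inactivates prostaglandins, read 10.81 in STKO, 8.35 in TKO and 11.54 in WT cultures. TKO was thus the array that stood apart. Ddit4l, an inhibitor of mTOR signalling, and Ecrg4 read 10.33 and 8.46 in STKO, 8.29 and 6.43 in TKO, and 10.41 and 8.96 in WT cultures. Ly6c1, Adam23 and Ednrb, the endothelin B receptor, were higher in STKO than in TKO cultures by 2.47, 2.14 and 2.16. Of the 15, TKO was 2-fold or more below WT in 10, within 2-fold in 4 and above it in 1. The only gene 16-fold or more higher, named after its value was seen, was Serpina3n, a serine protease inhibitor. It read 10.47 in STKO cultures, was not detected in TKO cultures and read 9.82 in WT cultures, at least 27.9-fold higher in STKO than in TKO.

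Other lists held few or no genes 2-fold apart. None of 17 tested collagen and matrix genes was called, with a median difference of 0.40, and Col1a1 lay within 2-fold between STKO and TKO while WT was 2-fold higher than both. Of 7 complement genes 1 was called, C4a, not detected in TKO cultures and at least 1.85-fold higher, while C1qa and C1qb differed by 0.01 and 0.03. None of 10 housekeeping genes and none of 11 genes of positional identity was called. Single genes were higher in the lists of matrix proteases (Mmp3), myofibroblast genes (Actg2), lipid synthesis (Scd1), hypoxia (Adm), oxidative stress (Gsta4) and lysosome and autophagy (Map1lc3a), by 1.47, 1.24, 1.34, 1.48, 1.06 and 1.18. Atf3, a stress-induced factor, and Plk2 were the single lower genes of the unfolded protein and p53 lists, by 1.07 and 1.11.

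The WT mock array places these differences. Both comparisons with WT share arrays with the contrast that picked the genes, so their values are given side by side. Some probes set WT apart from both knockout cultures by far more than 2-fold, among them, named after their values were seen, Fcer1g, Ifi202b, Gdf3 and a probe of Mcm6 that read 11.73 in STKO, 11.50 in TKO and 6.34 in WT cultures. Whether WT cells differ from the others beyond the targeted genes was not tested, and a level within 2-fold of WT is a position against that 1 array. Detection on the WT array was not required, here or in the counts by list. For genes detected on neither the STKO nor the WT mock array, such as Mx1 and Slfn1, a level within 2-fold compares undetected readings. Of the 382 lower genes, STKO was within 2-fold of WT in 311 (81.4%), 2-fold or more below it in 62 and above it in 9. TKO was within 2-fold of WT in 120 of the same genes, above it in 261 and below it in 1, Crct1. The median of the lower genes was -0.34 for STKO minus WT and 1.35 for TKO minus WT. Among all 9320 tested genes, STKO was 2-fold below WT in 1.77% and above it in 1.2%, and TKO below in 5.18% and above in 4.44%. Of the 294 higher genes, STKO was within 2-fold of WT in 250 (85.0%), below it in 8 and above it in 36. TKO was 2-fold below WT in 173 of them, within 2-fold in 119 and above it in 2, Gdf3 and Plk1. With detection asked on both the STKO and TKO mock arrays, STKO was within 2-fold of WT in 79.9% of the lower and 88.6% of the higher genes.

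By list, the interferon-related genes differed in where STKO came to lie. Of the 92 tested genes, STKO was within 2-fold of WT in 68, below it in 23 and above it in 1, which was Trim30a, and TKO was above WT in 64. The antiviral list held 16 of the 23 genes below WT. Ifi27l2a was one of them, at 11.81 in STKO, 13.62 in TKO and 13.53 in WT cultures, so TKO and WT lay together there. STKO lay within 2-fold of WT for all 22 class I genes and for 16 of 17 NF-kB genes. TKO did so for 13 of the class I and 14 of the NF-kB genes. Among all tested genes, STKO was within 2-fold of WT in 97.0% and TKO in 90.4%. Of the 17 collagen and matrix genes, STKO lay 2-fold below WT in 7 and TKO in 9.

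**Figure D4:**
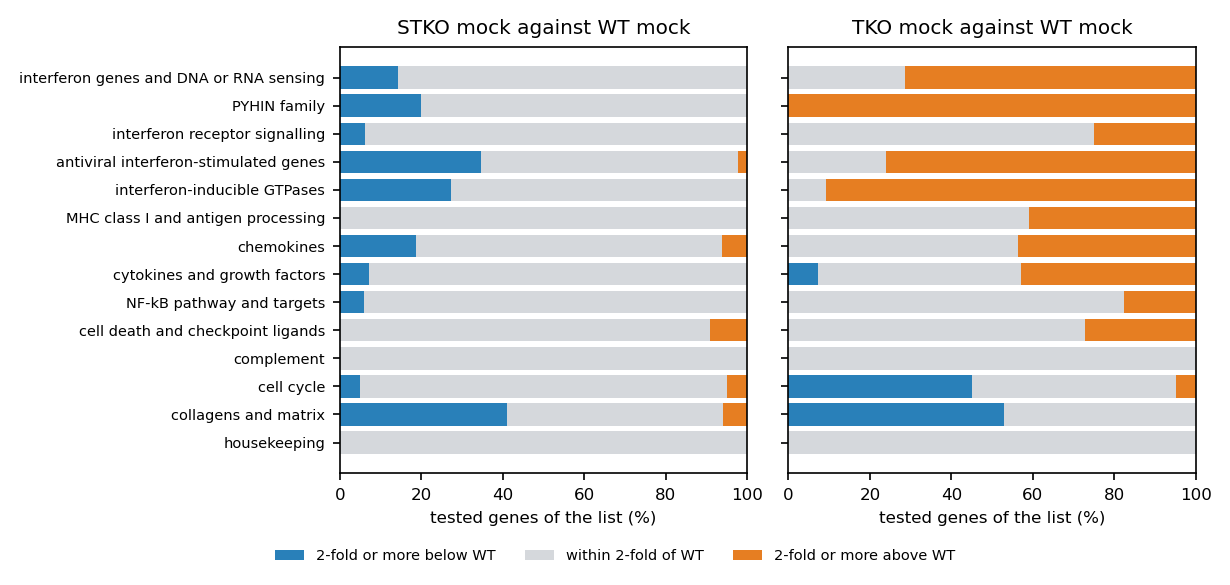
Share of the tested genes of each list, in percent on the x axis, that lay 2-fold or more below, within 2-fold of or 2-fold or more above the WT mock array, for STKO mock (left) and TKO mock (right). For antiviral genes, 16 of 46 lay below and 29 within on the STKO side, whereas 35 of 46 lay above WT on the TKO side. Detection on the WT array was not required.

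The same genotype contrast was read on the ISD arrays, which share no array with the mock ones. Of the 382 genes lower on the mock arrays, 316 were 2-fold or more lower in STKO than in TKO cells with ISD (82.7%) and 0 were higher, against 6.72% lower among all tested genes. Of the 294 higher genes, 208 were 2-fold or more higher with ISD (70.7%) and 1 was lower, against 6.85% higher among all tested genes. All 15 of the largest decreases and all 15 of the largest increases kept their direction at 2-fold or more. Cxcl10 read 9.91 in STKO and 15.32 in TKO cells with ISD (difference -5.40). Hp read 9.77 in STKO and 7.25 in TKO cells with ISD (difference 2.52). TKO levels of Cxcl10, Rsad2 and Ifit3 with ISD, 15.32, 15.11 and 15.28, lay close to the highest level of 15.44, which limits the differences that could be read there. In Cxcl2 the contrast was 0.21 with ISD, against -1.34 on the mock arrays, and whether these differ was not tested.

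**Figure D5:**
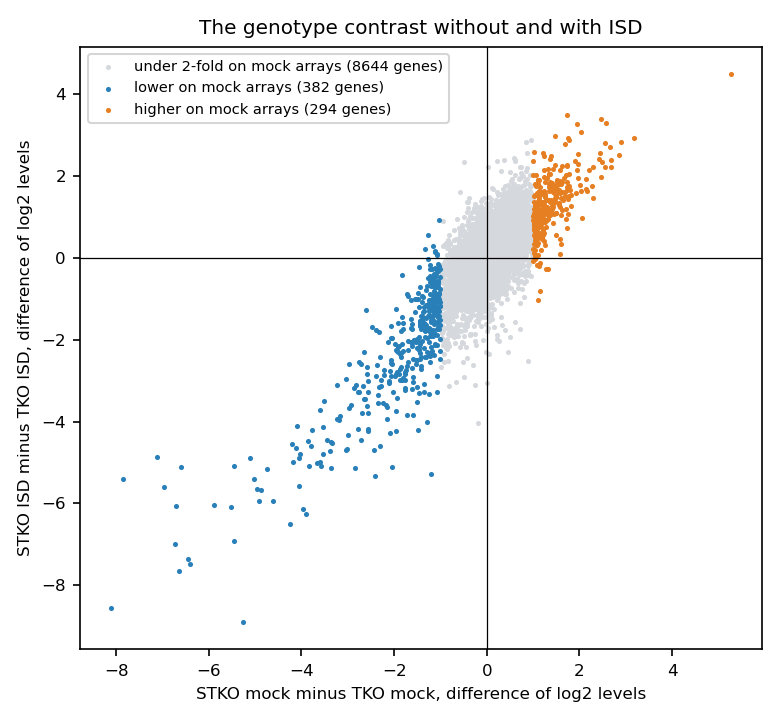
Each point is 1 of 9320 tested genes, with the STKO minus TKO difference of log2 levels on the mock arrays on the x axis and on the ISD arrays on the y axis. The 382 lower genes (blue) lie mostly below 0 and the 294 higher genes (orange) mostly above 0 on the y axis.

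Some genes were undetected on both arrays of a genotype. Of the lower genes, 64 were detected on both TKO arrays and on neither STKO array, among them Oasl1, Gm4951, Cxcl9, Mx1 and Oas3. Of the higher genes, 60 were detected on both STKO arrays and on neither TKO array, Serpina3n among them. Other members lie close to the lowest detected level, with mock bounds under 2-fold. Among them are Pde7b (at least 1.05-fold) and Il27 (1.12-fold) of the lower genes and Entpd2 (1.11-fold) of the higher. How many uncalled genes share this detection pattern was not counted. Of 123 lower genes with several tested probes, the probe that made the call included, all probes had the same sign in 120 and all were 2-fold in 81. For the higher genes these counts were 80 and 38 of 84. Among all 3435 genes with several tested probes, most of them not called, 62.9% had the same sign throughout. Called genes were picked for a large difference in 1 of these probes, so these shares do not check the calls. In Hyi, Mgst1 and Tmem132a, named after their values were seen, probes were 2-fold apart in opposite directions. The 2 Mgst1 probes differed by -5.03, 1 of them undetected in STKO cultures, and by 1.04.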

How the data were processed

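The authors deposited 1 non-normalized table of intensity values for 45281 probes on each of 6 Illumina arrays, and beside each value a fraction, read as the share of negative controls below the probe. They also deposited a table of log2 values, which is centred on each probe's median over the 6 arrays (found from the values) and served as an alternative. The array version, the scanner software and the authors' processing were not given in the sources used here. Groups come from the sample titles.

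Intensities were normalized with neqc of limma 3.58.1 in R 4.3.3 (background from the detection fractions, offset 16, quantile normalization, log2), and counts were made with pandas 2.3.3 and numpy 2.4.6 under Python 3.11.15. The offset understates differences of dim probes. A gene was called when detected (fraction above 0.99, a detection p under 0.01) on at least 1 of the 2 arrays and 2-fold apart. The normalization and the 2-fold call by probe were tested on simulated data, with larger changes in probes well above background. Dim probes, changes near 2-fold and the counts by gene and by list were not tested in this way. With 1 array a group there is no test, and the number of arrays limits the precision.

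Of the probes, 34885 had 1 gene symbol in the platform annotation, 18 had several and 10378 were unnamed here. For 34807 probes the symbol was taken from RefSeq through the gene identifier, whether or not it changed. The probe with the highest mean level over the 6 arrays stands for its gene. Where a probe was undetected on the dim array, the bound sets the bright level against the lowest level at which any probe was detected there, or the probe's own level where that is higher.

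Named are the targeted genes, the 15 largest decreases and 15 largest increases (2-fold or more whether or not the background was corrected, in genes that both arrays detected), and list members, of which mainly the largest differences get values, with uncalled members of the 5 interferon lists. The members, the 25 gene lists and the 7 marker lists were chosen with earlier results of these data known.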

Additional observations from a re-analysis of the deposited data

Results flagged for a closer look

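Podxl, which encodes the membrane sialomucin podocalyxin, was the single gene whose measured levels differed 2-fold in opposite directions without and with ISD. The STKO minus TKO difference was 1.10 on the mock arrays and -1.02 on the ISD arrays. Its levels were 5.86 in STKO mock and 4.76 in TKO mock cultures, and 4.91 in STKO and 5.93 in TKO cells with ISD, and it was detected only on the STKO mock and the TKO ISD array. With the undetected levels at their bound, the differences are only at least 1.15-fold without and 1.28-fold with ISD. Whether the 2 differences differ was not tested.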

How the results depend on the processing

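No paired analysis was possible because each group holds 1 array, and for the same reason no replicate could be left out. Without background correction, 418 probes were lower and 211 higher. By gene, 261 were lower, against 382 in the main processing, and 144 were higher. Of the called genes, 34 lower ones were 2-fold below WT, 121 higher ones were within 2-fold of WT and 112 were 2-fold higher with ISD. With an offset of 50, 254 probes and 173 genes were higher and 290 genes were lower. Of these genes, 36 lower ones were below WT, 146 higher ones were within 2-fold of WT and 131 were higher with ISD. With the deposited log2 table, 419 probes were lower and 214 higher, and 261 genes were lower and 147 higher. Of these genes, 34 lower ones were below WT, 124 higher ones were within 2-fold of WT and 114 were higher with ISD. At 1.5-fold, 1633 probes were lower and 1726 higher, and 867 genes were lower and 1003 higher. Of these genes, 770 lower and 934 higher ones were within 2-fold of WT, 600 were lower and 671 higher with ISD, and 11 cell cycle genes were higher. The share of called probes that were lower was 58.7%, against 48.6% at 1.5-fold, so the balance turned there. With detection asked on both arrays, 427 probes were lower and 313 higher. Of the recomputed counts of single gene lists, 415 lay within 1.5 times their values and 35 did not. With detection on both arrays, 2 PYHIN genes and 7 GTPases were lower, and at 1.5-fold 16 class I genes were lower, and 5 collagen and matrix and 6 positional identity genes higher. Across all genes and over the interferon and cell cycle lists, 71 recomputed counts lay within 1.5 times their values, the 261, 290 and 261 lower genes included. The settings were those above, median scaling, the mock arrays normalized alone, a detection fraction above 0.95, no detection filter and the mean over a gene's probes. Normalizing the mock arrays alone gives no ISD value. Under the 5 settings that recompute levels, 157 of 160 differences of the targeted genes and the 30 ranked genes kept direction and side of 2-fold, and the 30 had been chosen as 2-fold also without background correction. The 3 others were Sting1. It fell short of 2-fold without background correction (-0.80), with an offset of 50 (-0.94) and in the deposited log2 table (-0.79). The cause of these shifts was not tested. Signal over background limits the dim genes, since median intensity was 76.8 to 85.3 and 14488 to 16177 probes were detected on an array.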
